A study of Homo sapiens with 8 samples.

Results

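The transcription factor NRF2, encoded by NFE2L2, works within a small network of partners, paralogues and regulators, and the transcript levels of 10 genes of this network were examined when NFE2L2 was silenced in A549 cells. The 10 genes were chosen by name for their known roles, with earlier results of these data known, out of 60291 genes in the count tables. They comprise the cap'n'collar (CNC) transcription factors NFE2L2, NFE2L1 and NFE2L3, the small MAF proteins MAFF, MAFG and MAFK, the repressor BACH1, and the proteins KEAP1, CUL3 and SQSTM1, which set the stability of NRF2. A549 is an established lung adenocarcinoma cell line in which KEAP1 is inactivated by mutation and NRF2 escapes degradation. Every group shares this background.

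Each transfection used 250000 cells and RNAiMAX lipid reagent, and total RNA was depleted of ribosomal RNA and sequenced by strand after 48 h. The NFE2L2 siRNA group held 3 libraries, each from a different siRNA duplex against NFE2L2 at 5 nmol. The control siRNA group held 4 libraries, from 2 control duplexes at 5 nmol that were each transfected 2 times. The mock library came from cells that received the lipid without siRNA, and it was left out of the main tests and described beside them. The labels do not say whether transfections were done on separate cultures or days, so p-values measure the spread between these libraries, and the control libraries are not independent in their duplexes.

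NRF2 activates genes of glutathione synthesis, thioredoxin reduction, NADPH supply and drug export by binding antioxidant response elements as a heterodimer with a small MAF protein. In unstressed cells KEAP1 presents NRF2 to a ubiquitin ligase built on CUL3, and the proteasome removes it. The autophagy receptor SQSTM1, also known as p62, competes with NRF2 for KEAP1. BACH1 pairs with the same small MAF proteins and represses many of the same genes. Loss of KEAP1 function is a known route by which lung adenocarcinomas keep NRF2 active.

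Of the 10 genes, 4 passed the threshold, and all were reduced: NFE2L2, MAFG, KEAP1 and SQSTM1. Across all 17811 tested genes 1.36% were reduced and 1.39% increased past the same threshold, 2.76% in all. The threshold was an adjusted p under 0.01 in edgeR's quasi-likelihood test of NFE2L2 siRNA against control siRNA, two-sided, in which p-values were adjusted by the Benjamini-Hochberg method over every gene tested. All 10 genes had enough reads to be tested, with at least 194 reads in every library. The median log2 fold change was −0.48 over the network and 0.01 over all tested genes. In 5 network genes the highest NFE2L2 siRNA library was still below the lowest control library, an arrangement that 9.5% of all tested genes had, and the reverse held for 0 of them, against 13.6% of all tested genes. NFE2L2 is itself the target of the duplexes, so its own reduction checks the labels and is not a response of the network. It is included in the 4 genes past the threshold, in the 5 without overlap and in the median.

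**Figure D1:**
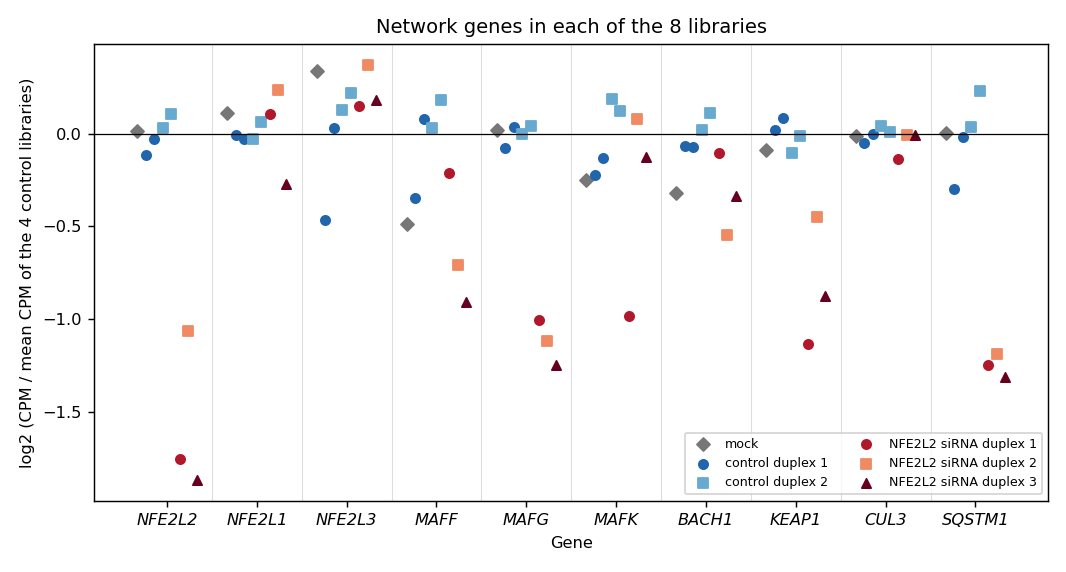
Level of each network gene in each of the 8 libraries, as the log2 ratio of its CPM (reads per 1000000 gene reads) to the mean of the 4 control libraries, with duplexes marked by shape and colour. MAFG and SQSTM1 were at about the same low level with all 3 NFE2L2 duplexes, KEAP1 was lowered least by duplex 2, and MAFK was low with duplex 1 alone.

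The antioxidant response element has the core TGACNNNGC. A search of both strands of RefSeq promoter windows, from 250 bases before to 50 after each annotated start in GRCh38.p14, found this core in 2 of the 18 windows available for 9 network genes, those of KEAP1 and MAFF. Across all 35116 windows 13.3% held it. Of 14 windows for 13 of the canonical NRF2 target genes described further on, 5 held it, from 4 genes. The stricter form with a further A at its end, which contains the shorter core, was held by 3.18% of all windows and by 1 network window, that of KEAP1. MAFK had no window in the table. The matches of KEAP1 and MAFF are shown beside those of GCLM and 1 of 2 of ME1, with the core in capitals and 10 bases on either side, each read 5′ to 3′ on the strand that carries it. They were placed by exact match on GRCh37, the build of the count tables.
KEAP1, chr19:10613460-10613488, plus strand: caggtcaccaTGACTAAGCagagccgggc
KEAP1, chr19:10613483-10613511, minus strand: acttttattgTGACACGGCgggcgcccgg
GCLM, chr1:94375002-94375030, plus strand: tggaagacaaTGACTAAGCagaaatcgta
ME1, chr6:84140889-84140917, minus strand: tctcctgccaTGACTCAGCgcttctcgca
MAFF, chr22:38597869-38597897, minus strand: cgcccccgtaTGACCCCGCcccctggaag
Not shown are 3 matches of TXNRD1, 1 of PGD and the other of ME1. The plus-strand match of KEAP1 and the match of GCLM share all 9 letters of the core and the A that follows in the stricter form. Both KEAP1 matches lie within an annotated exon, 535 and 558 bp downstream of the start of the Ensembl canonical transcript and near the start of a RefSeq one. The MAFF match lies in an exon 118 bp upstream of the canonical start. A match is a description of letters in a window, and the absence of one, as in the windows of MAFG and SQSTM1, says nothing about sites elsewhere.

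Among the CNC factors, NFE2L2 was reduced and its paralogues did not pass the threshold. NFE2L2 (ENSG00000116044.11) was measured at 32.8, 52.9 and 30.3 CPM with duplexes 1, 2 and 3, at 102, 108, 113 and 119 CPM in the control libraries and at 112 CPM in mock. The groups did not overlap. Relative to the control mean, duplexes 1, 2 and 3 left 29.6%, 47.9% and 27.4% of the transcript, so that duplex 2 was the least effective. This gave a log2 fold change of −1.55 ± 0.178 (standard error) with an adjusted p of 0.000995 by edgeR.

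NFE2L1 (ENSG00000082641.11, chromosome 17, 46125691 to 46138907, plus strand) encodes a membrane-bound relative of NRF2 that activates proteasome genes after it is processed out of the endoplasmic reticulum. It was measured at 273, 299 and 210 CPM with NFE2L2 siRNA, at 252, 249, 248 and 265 CPM in the control libraries and at 274 CPM in mock. Duplex 3 was below and duplexes 1 and 2 above all controls, and the log2 fold change was 0.01 (95% interval −0.26 to 0.28, adjusted p = 0.978). The interval excludes a change of the size seen for NFE2L2.

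NFE2L3 (ENSG00000050344.8, chromosome 7, 26191818 to 26226757, plus strand), a further membrane-bound CNC factor, had few reads. Its level was 7.62, 8.90 and 7.80 CPM with NFE2L2 siRNA and 4.98, 7.03, 7.52 and 7.99 CPM in the control libraries. The groups overlapped through control duplex 2, and mock, at 8.68 CPM, was above every control library. Its log2 fold change of 0.21 did not pass (95% interval −0.14 to 0.56, adjusted p = 0.442).

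The small MAF proteins lack an activation domain of their own and serve as DNA-binding partners of both NRF2 and BACH1. Only MAFG passed the threshold of the 3. MAFG (ENSG00000197063.6, chromosome 17, 79876146 to 79885611, minus strand) was measured at 57.7, 53.3 and 48.7 CPM with NFE2L2 siRNA, at 110, 118, 115 and 119 CPM in the control libraries and at 117 CPM in mock. The 3 duplexes left 49.9%, 46.1% and 42.1% of the control mean, which is a narrower spread than that of NFE2L2 itself. For MAFG this gave −1.15 ± 0.0936 (standard error) on the log2 scale and an adjusted p of 0.000122.

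MAFF (ENSG00000185022.7, chromosome 22, 38596774 to 38612514, plus strand) was measured at 8.98, 6.36 and 5.55 CPM with NFE2L2 siRNA and at 8.19, 10.99, 10.6 and 11.8 CPM in the control libraries. Duplex 1 lay within the control range, and mock, at 7.42 CPM, was below all controls. MAFF did not pass, with a log2 fold change of −0.61 (95% interval −1.03 to −0.19, adjusted p = 0.0773).

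MAFK (ENSG00000198517.5, chromosome 7, 1570338 to 1582679, plus strand) differed most between the NFE2L2 duplexes. It was measured at 86.9, 182 and 158 CPM with duplexes 1, 2 and 3 and at 147, 157, 196 and 187 CPM in the control libraries, with mock at 145 CPM. Duplex 1 left 50.6% of the control mean, whereas duplexes 2 and 3 left 106% and 91.8%, within the control range. MAFK did not pass either, at a log2 fold change of −0.31 (95% interval −0.78 to 0.16, adjusted p = 0.395). This low level was thus seen in 1 library, and NFE2L2 was no lower in it than with duplex 3.

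To set genes of one family side by side, CPM was divided by the merged exon length of each gene in kilobases. On this scale MAFK made up most of the small MAF transcripts in the control libraries, with 61.5% ± 2.76 (SD, n = 4), followed by MAFG with 35.6% ± 2.71 and MAFF with 2.97% ± 0.302. The share of MAFG was 34.4%, 19.6% and 20.4% with NFE2L2 duplexes 1, 2 and 3. It was 37.8%, 37.9%, 32.5% and 34.0% in the control libraries and 39.9% in mock. Duplex 1, with its low MAFK, lay within the control range, and duplexes 2 and 3 lay below it (exact permutation test over 35 divisions of the 7 libraries, two-sided, p = 0.171, adjusted p = 0.171 over 3 measures). The smallest p that this test allows is 0.0571. The summed small MAF level was 62.4 ± 5.87 CPM per kb (SD, n = 4) in the control libraries and 43.2 ± 10.1 (SD, n = 3) with NFE2L2 siRNA.

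Among the CNC factors NFE2L1 made up 82.8% ± 1.07 (SD, n = 4) of the summed level in the control libraries and 90.8% ± 1.13 (SD, n = 3) with NFE2L2 siRNA. The NFE2L2 share was 4.35%, 6.26% and 5.12% with NFE2L2 siRNA and 13.4%, 14.1%, 14.6% and 14.5% in the control libraries, with 13.3% in mock. The groups did not overlap (exact permutation test, two-sided, p = 0.0571, adjusted p = 0.0857), which is the smallest p this test can give. Since NFE2L2 is the target of the duplexes, the fall in its share is the knockdown itself. The NFE2L1 share rises as that of NFE2L2 falls, while the log2 fold change of NFE2L1 was 0.01. The rank of NFE2L2 in such a comparison depends on the length used, since its merged exons span 14975 bp and its canonical transcript 2446 bp. With the canonical length the control share of NFE2L2 was 45.4%.

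**Figure D2:**
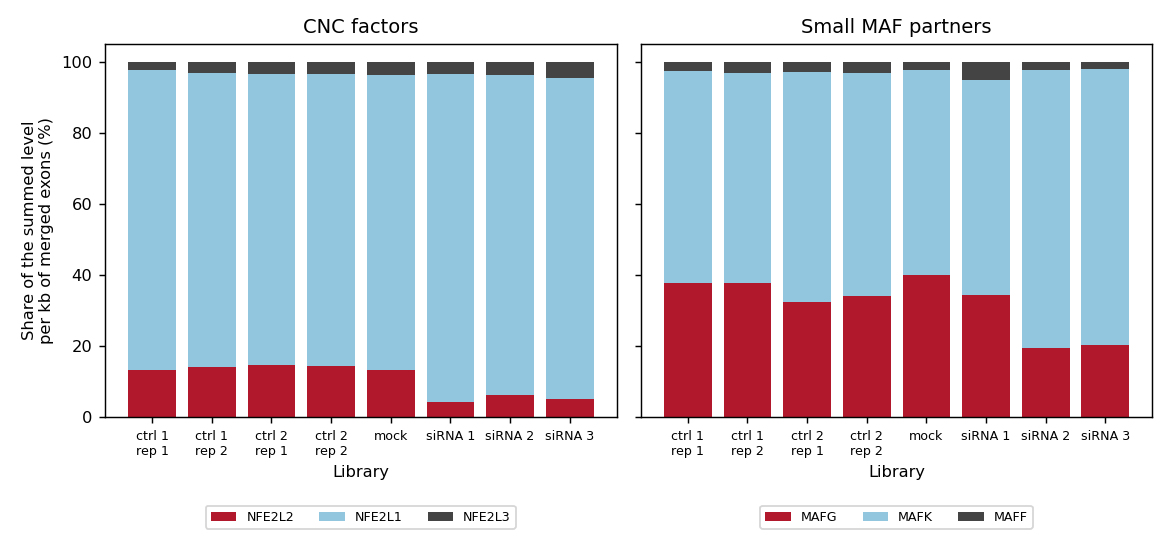
Share of each gene in the summed level of its family (%, CPM per kilobase of merged exons) in the 4 control libraries (ctrl, by duplex and repeat), mock and the 3 NFE2L2 siRNA libraries, for CNC factors on the left and small MAF proteins on the right. The NFE2L2 share was at most 6.26% in the siRNA libraries and at least 13.3% elsewhere, and the MAFG share was low with duplexes 2 and 3 but not with duplex 1.

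BACH1 (ENSG00000156273.11, chromosome 21, 30566392 to 31003071, plus strand) encodes the heme-sensitive repressor that occupies antioxidant response elements with small MAF proteins. It was measured at 60.9, 44.9 and 52.0 CPM with NFE2L2 siRNA and at 62.5, 62.4, 66.5 and 70.8 CPM in the control libraries. The groups did not overlap, but mock, at 52.5 CPM, also lay below every control library. With a log2 fold change of −0.35 (95% interval −0.61 to −0.09, adjusted p = 0.0968), BACH1 did not pass.

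The balance between repressor and activator transcripts was compared as a ratio within each library. That of BACH1 to NFE2L2, per kilobase of merged exons, was 3.63, 1.66 and 3.35 with NFE2L2 duplexes 1, 2 and 3 and between 1.12 and 1.20 in the control libraries. Mock had 0.918. The mean ratio was 2.48 times that of the control libraries, with no overlap (exact permutation test, two-sided, p = 0.0571, adjusted p = 0.0857). Since NFE2L2 is the target of the duplexes, its part in this ratio is the knockdown itself.

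Of the proteins that set NRF2 stability, KEAP1 and SQSTM1 were reduced and CUL3 did not pass the threshold. KEAP1 (ENSG00000079999.9) was measured at 38.3, 61.5 and 45.8 CPM with NFE2L2 duplexes 1, 2 and 3, at 85.4, 89.3, 78.4 and 83.3 CPM in the control libraries and at 79.1 CPM in mock. These levels were 45.5%, 73.1% and 54.5% of the control mean, with the weakest reduction under duplex 2, the duplex that also left the most NFE2L2. The order of the other duplexes differed, with KEAP1 lowest under duplex 1 and NFE2L2 lowest under duplex 3. The fitted log2 fold change was −0.83 ± 0.148 (standard error), and the adjusted p was 0.00922. This call sat close to the threshold: it was lost in 10 of 19 alternatives, with an adjusted p of up to 0.127. Those included 6 of the 7 fits that left out 1 library (adjusted p up to 0.0424), and the call held without NFE2L2 duplex 2 (log2 fold change −1.04, adjusted p = 0.000822). The transcript counted here is that of the mutant KEAP1 of A549.

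SQSTM1 (ENSG00000161011.15, chromosome 5, 179233398 to 179265078, plus strand) was the most abundant gene of the network. It was measured at 460, 480 and 442 CPM with NFE2L2 siRNA, at 889, 1082, 1123 and 1283 CPM in the control libraries and at 1098 CPM in mock. The NFE2L2 duplexes were within a narrow range, at 42.1%, 43.9% and 40.4% of the control mean. The control duplexes differed from each other, with a mean of 986 CPM for duplex 1 and 1203 CPM for duplex 2, and every NFE2L2 siRNA library was below all of them. For SQSTM1 the log2 fold change was −1.28 ± 0.114 (standard error), and the adjusted p was 0.000227.

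CUL3 (ENSG00000036257.8, chromosome 2, 225334867 to 225450114, minus strand), the cullin scaffold of the ligase, was measured at 145, 158 and 158 CPM with NFE2L2 siRNA and at 154, 159, 164 and 160 CPM in the control libraries. The groups overlapped and mock was at 158 CPM. Its log2 fold change was −0.08, and the 95% interval of −0.25 to 0.09 was the narrowest of the network (adjusted p = 0.562).

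MAFG and SQSTM1 kept an adjusted p under 0.01 in all 19 alternatives. Set against 1 control duplex alone, or against control libraries summed by duplex, NFE2L2 and KEAP1 did not pass, which left 2 of the 10 genes, and the adjusted p of NFE2L2 reached 0.0259 in these smaller designs.

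**Figure D3:**
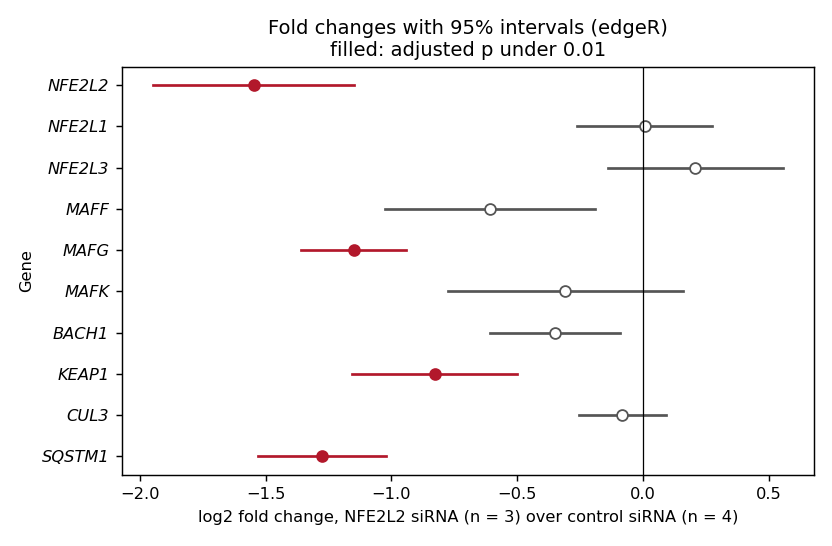
Log2 fold change of each network gene between NFE2L2 siRNA (n = 3) and control siRNA (n = 4) with its 95% interval, and filled points for an adjusted p under 0.01 (edgeR). The intervals of NFE2L2, MAFG, KEAP1 and SQSTM1 lie below −0.49, those of MAFF and BACH1 below 0 without passing, and those of NFE2L1, NFE2L3, MAFK and CUL3 include 0.

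On the scale of CPM per kilobase of merged exons, the control level was 145 for SQSTM1, 43.1 for NFE2L1, 38.5 for MAFK, 23.5 for KEAP1, 22.1 for MAFG, 13.8 for CUL3, 8.55 for BACH1, 7.38 for NFE2L2, 1.85 for MAFF and 1.60 for NFE2L3. In this order the control ranges overlapped between NFE2L1 and MAFK, between KEAP1 and MAFG, and between MAFF and NFE2L3. Within control duplex 2, repeat 1, MAFK was above NFE2L1 and MAFG above KEAP1, so the order of these pairs is not fixed. MAFF was above NFE2L3 within each of the 4 control libraries. NFE2L2 would be at 21.7 by the length of its longest transcript and at 45.2 by that of its canonical one, so its place is not fixed. By either of these lengths CUL3, at 23.5, would be above MAFG, at 22.9.

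Genes that overlap a network gene can bear on its count, although the authors counted reads by strand. There were 30 such genes, 14 on the same strand and 16 on the opposite one, of which 12 could be tested. Of these, 0 passed in edgeR and in limma-voom, 4 had an unadjusted p under 0.05, and DESeq2 called 1. Over all tested genes 4457 of 17811, or 25%, had an unadjusted p under 0.05, and the counts at this level are to be read against that share here and in the lists. That gene was the lncRNA ENSG00000264769, opposite MAFG (chromosome 17, 79880775 to 79882387, plus strand), with 1, 5 and 0 reads with NFE2L2 siRNA against 7, 23, 24 and 17 in the control libraries and 19 in mock (log2 fold change −3.16 and adjusted p = 0.029 by edgeR, adjusted p = 0.00129 by DESeq2). SIRT7, which encodes a sirtuin and shares 105 exonic bp with MAFG on the same strand, was at 35.4, 34.0 and 29.2 CPM against 27.9 to 35.03 CPM (log2 fold change 0.01, adjusted p = 0.983). TMEM184A, opposite MAFK with 809 shared exonic bp, was at 16.5, 27.9 and 30.2 CPM against 49.8, 46.8, 28.7 and 30.4 CPM (log2 fold change −0.69, adjusted p = 0.133).

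The remaining neighbours lay between −0.10 and 0.54 on the log2 scale. HNRNPA3 and AGPS, opposite NFE2L2, had log2 fold changes of 0.22 (adjusted p = 0.285) and 0.22 (adjusted p = 0.134). MGAT4B and MRNIP, opposite SQSTM1, had values of −0.10 (adjusted p = 0.514) and 0.33 (adjusted p = 0.161). HNRNPA2B1, opposite NFE2L3, had −0.01 (adjusted p = 0.973), and PLA2G6, opposite MAFF, had 0.27 (adjusted p = 0.276). The others with a test were BACH1-IT1 within BACH1 (0.54, adjusted p = 0.455), the pseudogene ANKRD49P1 within CUL3 (0.16, adjusted p = 0.695) and the lncRNA ENSG00000213963 within NFE2L2 (0.27, adjusted p = 0.354). The other 18 genes had fewer than 10 reads in every compared library.

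A divergent lncRNA starts 94 bp from MAFG and was named after its values were seen. MILIP (ENSG00000265688.1, also known as MAFG-AS1, chromosome 17, 79885705 to 79888629, plus strand) had 221, 239 and 211 reads with NFE2L2 siRNA against 356, 354, 290 and 316 in the control libraries and 389 in mock. The groups did not overlap, but with a log2 fold change of −0.64 ± 0.135 (standard error) and an adjusted p of 0.0199 it did not pass the threshold. The divergent transcript of NFE2L1, NFE2L1-DT, had −0.16 (adjusted p = 0.678).

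Around the network, 59 further genes in 7 lists of known partners and regulators were all tested, and 1 passed, where 2.76% of all genes did, so the lists held no more calls than the background. The gene was UBE2M, the E2 enzyme that attaches NEDD8 to cullins and so activates CUL3 ligases. UBE2M was measured at 68.6, 104 and 102 CPM with NFE2L2 siRNA, at 152, 162, 143 and 154 CPM in the control libraries and at 168 CPM in mock. All NFE2L2 siRNA libraries lay below all controls (log2 fold change −0.77, standard error 0.139, adjusted p = 0.00944). The call was close to the threshold and held in 9 of 18 refits.

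The other genes of the cullin-RING list of 10 did not pass in edgeR, and the list median was −0.05. In this list DESeq2 called 2, UBE2M and NAE1, and 2 had an unadjusted p under 0.05, against 25% of all genes. NAE1, a subunit of the E1 enzyme for NEDD8, had 86.9, 81.2 and 66.2 CPM against 103, 113, 99.1 and 107 CPM, without overlap (log2 fold change −0.47, adjusted p = 0.0362 by edgeR, 0.00628 by DESeq2). CAND1, which exchanges substrate receptors on cullins, was at −0.03 (adjusted p = 0.858), COPS2 of the COP9 signalosome at −0.03 (adjusted p = 0.884) and GPS1 of the same complex at −0.10 (adjusted p = 0.649).

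Of 9 genes for proteins that bind KEAP1 or NRF2, 0 passed in edgeR, 3 had an unadjusted p under 0.05, near the 25% of all genes, and DESeq2 called 1. The median was −0.18. That gene was BRCA1, a DNA repair protein reported to bind NRF2, with 32.4, 62.2 and 42.8 CPM against 61.7, 67.5, 77.8 and 84.2 CPM (log2 fold change −0.70, adjusted p = 0.0547 by edgeR, 0.00951 by DESeq2). Its groups overlapped through duplex 2. PTMA, a nuclear KEAP1 binder, had −0.18 (adjusted p = 0.388), CDKN1A, the p21 inhibitor of cyclin-dependent kinases, −0.10 (adjusted p = 0.541) and the mitochondrial phosphatase PGAM5 −0.22 (adjusted p = 0.285).

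Of 11 genes for KEAP1-independent turnover of NRF2, which runs through GSK3 and beta-TrCP or through the ER ligase SYVN1, 0 passed in edgeR and in DESeq2, and 2 had an unadjusted p under 0.05, against 25% of all genes. The ATPase VCP was at 669, 422 and 675 CPM against 782 to 818 CPM, below every control library (log2 fold change −0.47, adjusted p = 0.0943), and SKP1, a ligase adaptor, was at −0.25 (adjusted p = 0.0783). NPLOC4, a VCP cofactor, was at −0.09 (adjusted p = 0.616). The median of the list was −0.11.

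The 6 genes that process NFE2L1 and the 8 coactivator genes had medians of 0.04 and 0.02, and in each list 0 passed in edgeR or DESeq2 and 2 had an unadjusted p under 0.05, against 25% of all genes. In the first list, OGT, the O-GlcNAc transferase, was above every control library at 265, 190 and 213 CPM against 148 to 177 CPM (log2 fold change 0.42, adjusted p = 0.0706). So was FBXW7, at 42.5, 45.1 and 38.1 CPM against 31.7 to 34.5 CPM (log2 fold change 0.31, adjusted p = 0.0802). SEL1L of the ER ligase complex was at 0.12 (adjusted p = 0.779) and the cofactor HCFC1 at −0.03 (adjusted p = 0.919). In the second list, the nuclear receptor RXRA was below every control library at 48.7, 54.8 and 42.4 CPM against 60.5 to 62.1 CPM (log2 fold change −0.36, adjusted p = 0.0632). EP300 was above every control library at 35.3, 34.8 and 39.2 CPM against 26.1 to 34.7 CPM (log2 fold change 0.25, adjusted p = 0.2). NCOA3 and CHD6 were at 0.20 (adjusted p = 0.325) and −0.10 (adjusted p = 0.524).

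Beside SQSTM1, other autophagy adaptors and kinases were examined. Of 9 genes 0 passed in edgeR or DESeq2, 0 had an unadjusted p under 0.05, against 25% of all genes, and the median was 0.03. The receptors TAX1BP1 and NBR1 were at −0.20 (adjusted p = 0.24) and 0.08 (adjusted p = 0.608), and CALCOCO2 was at −0.00 (adjusted p = 0.995).

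The 6 remaining CNC, BACH and large MAF genes had few reads, with at most 126 in any library, and 0 passed in edgeR or DESeq2, with 1 at an unadjusted p under 0.05, against 25% of all genes. MAF itself had 37, 100 and 88 reads with NFE2L2 siRNA against 26 to 44 in the control libraries (log2 fold change 0.91, adjusted p = 0.104), and NFE2, the blood-cell CNC factor, had 78, 37 and 126 reads against 30 to 67 (0.85, adjusted p = 0.209). NRL was at −0.31 (adjusted p = 0.419). For genes this low a missed threshold says little.

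The response of known NRF2 targets in the same libraries was large. Of 20 canonical target genes, 19 were reduced past the threshold, against 1.36% of all tested genes. The list median was −1.99, against 0.01 over all tested genes, and the list was chosen with results of these libraries known. The exception was the efflux pump ABCC3, at −0.62 (adjusted p = 0.0248 by edgeR), while DESeq2 called all 20 as reduced. AKR1B10, an aldo-keto reductase, was measured at 361, 406 and 241 CPM against 4662, 4158, 3707 and 3662 CPM, and OSGIN1, a growth inhibitor of the oxidative stress response, at 4.28, 5.54 and 3.24 CPM against 41.7 to 50.5 CPM. The log2 fold changes of the 19 genes ran from −3.62 for AKR1B10 to −1.19 for FTH1, the ferritin heavy chain. SQSTM1, at −1.28, was near the small end of this range, and MAFG and KEAP1, at −1.15 and −0.83, had smaller values than any of the 19.

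**Figure D4:**
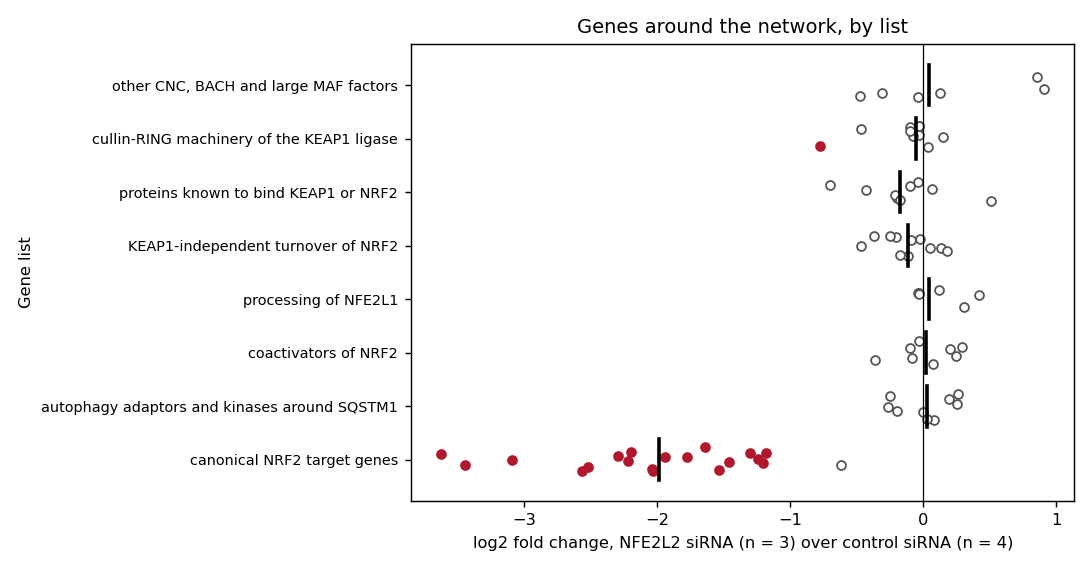
Log2 fold change between NFE2L2 siRNA (n = 3) and control siRNA (n = 4) for each gene of the 8 lists around the network, with the list median as a bar and filled points for an adjusted p under 0.01 (edgeR). Of the 59 genes outside the target list only UBE2M passed, whereas 19 of the 20 canonical targets were reduced. Over all tested genes 2.76% passed in either direction.

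Over the 8 libraries, the levels of SQSTM1, KEAP1 and MAFG followed that of NFE2L2, with Pearson r of 0.963, 0.961 and 0.960 on log2(CPM + 0.5). MAFF had 0.643, CUL3 0.55, MAFK 0.526, BACH1 0.499, NFE2L1 0.211 and NFE2L3 −0.23. These values describe 8 libraries that fall into treated and untreated ones, and any gene that differs between these has a high r. Among 13341 genes with a mean of at least 50 reads, those most like NFE2L2 were HJURP (0.996), B4GALNT1 (0.996), RAB10 (0.995), DGKG (0.995) and SOD1 (0.994). Those most like KEAP1 were AGFG1 (0.992), HSPA1B (0.992), SPSB1 (0.99), RAD51C (0.989) and CYB5R4 (0.989).

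Between 35525141 and 41645410 reads per compared library were counted on genes, 60.3% to 65.6% of all entries, with 39498992 in mock. Cell type markers were checked against the label of an epithelial line. KRT8 had 149218 reads or more in every library and 0 of 6 epithelial markers passed, with a summed level of 8595 to 13353 CPM with NFE2L2 siRNA and 8690 to 9106 CPM in the control libraries. The sum is set by the abundant keratins. KRT19 and CDH1 were above every control library without passing, at 188% and 172% of the control mean (adjusted p = 0.0201 and 0.0455), and EPCAM, which overlapped, was at 179% (adjusted p = 0.0624). The alveolar type 2 markers SFTPB, SFTPA1 and NKX2-1 had at most 3 reads in any library, and ABCA3 was increased (log2 fold change 0.66, adjusted p = 0.00274). Of 4 fibroblast markers COL1A1 was increased, with 331, 538 and 569 reads against 143 to 169 (log2 fold change 1.497, adjusted p = 0.000493), and the summed level was 11.5 to 17.5 CPM against 5.12 to 6.09 CPM, while DCN had at most 1 read. Of the 2 endothelial markers analysed CDH5 was increased at 18, 24 and 39 reads against 4 to 8 (1.99, adjusted p = 0.0082), with a sum of 0.612 to 1.01 CPM against 0.211 to 0.31 CPM, and the leukocyte sum was at most 0.225 CPM. The part of these markers in the network's values was not tested. In bulk libraries a lower level in every cell and a loss in some cells cannot be told apart.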

How the data were processed

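RNA levels were measured by strand-specific total RNA sequencing of 8 A549 libraries. Reads were aligned by the authors with HISAT 0.1.6 to hg19 and assigned by strand to GENCODE 19 genes with HTSeq 0.6.0, and the authors deposited unnormalized read counts per gene for each library. Samples were grouped by their labels. The 10 genes and the gene lists were chosen with earlier results of these data known. Read classes assigned to no gene (34.4% to 39.7% of entries) were left out. Positions and lengths came from GENCODE 44 mapped to GRCh37, which held 55538 of 60291 identifiers.

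A gene was tested if 1 or more of the 7 compared libraries had 10 reads or more on it. The test was that of edgeR 4.0.16, run in R 4.3.3 (TMM factors 0.957 to 1.02, glmQLFit, glmQLFTest, prior count 0.125), with a threshold of 0.01 on the Benjamini-Hochberg adjusted p. Printed CPM values use gene totals without TMM. Standard errors were derived from the F statistic, as the size of the log2 fold change divided by its root. Shares and ratios were compared by exact permutation in scipy 1.17.1. A level of 3 reads, the floor that a count of 0 allows, is 0.072 to 0.0845 CPM, and covers counting error only. Tests were tried on simulated counts with 200 changed genes. There edgeR recovered 74% of the 2-fold changes with 1 false call, limma-voom 73% with 1 and DESeq2 93% with 19. Changed genes were drawn from those with more reads. Libraries were simulated independently, so the sharing of control duplexes was not covered.

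Named genes were the 10 network genes, those overlapping them, list genes past the threshold with up to 3 further genes per list by control level, and the 5 genes most like NFE2L2 and KEAP1; further genes were added after their values were seen. Alternatives were DESeq2 1.42.0, limma-voom (limma 3.58.1), other scalings, filters, thresholds, gene lengths and control groups, and the omission of each library. Repeats of a control duplex differed beyond sampling noise (chi-square per degree of freedom 12.6 and 14.2). The same measure was larger between libraries of different control duplexes, at 24.26 to 47.6. Between libraries of different NFE2L2 duplexes it was 69.05 to 78.12. The sequences of the siRNA duplexes were not used here. A further result on 1 of the canonical target genes is not reported here.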

Additional observations from a re-analysis of the deposited data

Results flagged for a closer look

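In the mock library, which the main tests left out, 2 of the 10 network genes were above every control library. These were NFE2L1, at 274 CPM against 248 to 265 CPM, and NFE2L3, at 8.68 CPM against 4.98 to 7.99 CPM. MAFF, MAFK and BACH1 were below every control library in mock, at 7.42, 145 and 52.5 CPM. Their lowest control values were 8.19, 147 and 62.4 CPM. How many of all genes lay outside the control range in mock was not counted. With 1 mock library these differences have no replicate check.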

How the results depend on the processing

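MAFG and SQSTM1 kept their direction and their call in all 19 alternatives, with log2 fold changes from −1.22 to −1.08 and from −1.39 to −1.17. NFE2L2 lost its call in 3 (from −1.85 to −1.39 over all alternatives), KEAP1 in 10 (from −1.04 to −0.69), and none of the other 6 network genes gained one at 0.01. The number of network genes past the threshold went from 4 to 2 with control duplex 1 alone, to 2 with control duplex 2 alone and to 2 with control duplexes summed, which are fits with fewer libraries. The value of NFE2L1 lay at about 0 and changed sign without a call in 7 alternatives: to −0.0090 with limma-voom, −0.0020 with genes of at least 1 read, −0.0138 with control duplex 1 alone, −0.0084 with mock among the controls, and −0.04, −0.11 and −0.02 without NFE2L2 duplex 1, without duplex 2 and without control duplex 2, repeat 1 (−0.11 to 0.15 over all fits without 1 library).

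Over all genes the 491 calls became 1314 with DESeq2, 1019 with genes of at least 1 read, 120 and 59 with control duplex 1 or 2 alone, 78 with control duplexes summed, 772 with mock among the controls, 1456 at a threshold of 0.05, and 163 to 915 with 1 library left out, the highest without NFE2L2 duplex 2; the cause was not tested. Overlapping genes went from 0 calls to 1 with DESeq2, 1 with genes of at least 1 read and 1 at 0.05. The cullin-RING list went from 1 to 2 with DESeq2 and 2 at 0.05, and to 0 with library size alone, 0 with either control duplex alone, 0 with control duplexes summed and 0 to 1 with 1 library left out. KEAP1 or NRF2 binders went from 0 to 1 with DESeq2, 1 with genes of at least 1 read, and 0 to 1 with 1 library left out (BRCA1 without NFE2L2 duplex 2). KEAP1-independent turnover went from 0 to 0 to 1 with 1 library left out (FBXW11 without NFE2L2 duplex 2, adjusted p = 0.00758). The canonical targets went from 19 to 11 with control duplex 2 alone. The NFE2L2 share, the MAFG share and the BACH1 to NFE2L2 ratio kept their direction under every gene length, control duplex and omitted library tried, with the canonical transcript length added after seeing the data. A change of gene length rescales the BACH1 to NFE2L2 ratio of every library alike, so its fold over control stayed at 2.48. No paired analysis was possible because the number of an NFE2L2 siRNA library names its duplex and the number of a control library names a repeat of a control duplex, so no numbers pair the samples.

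With 3 and 4 libraries the exact tests cannot go below 0.0571. The NFE2L2 duplexes were transfected once each, so an effect of a duplex other than on NFE2L2 cannot be told apart from the spread between libraries, as for MAFK with duplex 1.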
